A study of Homo sapiens with 6 samples.

Results

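The enzymes and transporters that make, recycle and degrade nucleotides, together with the folate cycle that feeds them, were followed in MDA-MB-453 cells after transfection with a construct for overexpression of ZNF207. The set holds 46 genes of the 60569 gene names in the deposited table, chosen by symbol from a list that was drawn up with the earlier FPKM comparison of these same 6 libraries known, with 12 genes of the folate cycle, 17 of purine synthesis and salvage, 6 of pyrimidine synthesis and 11 of deoxynucleotide (dNTP) supply. A row with the highest mean was to be kept where a symbol had several rows, and 0 of the 46 symbols had more than 1. MDA-MB-453 is an established human breast cancer line of luminal apocrine type, and by the labels the groups differ in the construct: 3 libraries came from cells given the ZNF207 construct and 3 from cells given the control vector, and the design text calls each a separate biological replicate. No source used here gives the promoter of the construct, the time after transfection or any selection of the cells. ZNF207 is a zinc finger protein that brings the checkpoint protein BUB3 to kinetochores.

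Folate carries single-carbon units between serine, purines, thymidylate and methionine. Purine and pyrimidine rings are built on phosphoribosyl pyrophosphate or joined to it, and salvage enzymes return free bases and nucleosides to the nucleotide pool. Ribonucleotide reductase turns ribonucleotides into deoxynucleotides, and several of these genes are transcribed mostly in cells that enter S phase. Methotrexate, fluorouracil and hydroxyurea are cancer drugs that act on enzymes of this network.

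The levels are FPKM, fragments corrected for transcript length and library size, as deposited by the authors, so they can be set side by side between genes. ZNF207 stood at 885, 786 and 750.0 FPKM in the ZNF207 libraries, against 69.2, 67.0 and 63.7 FPKM in the control libraries (log2 change 3.58, SE 0.068, adjusted p = 4.03e-09, exact two-sided permutation p = 0.1, the smallest that 3 against 3 libraries allow). The libraries summed to between 589360 and 612711 FPKM, and their read depth is unknown. All 9 markers of the line were tested. KRT19, a luminal keratin, had the smallest p of these markers, at 1602, 1596 and 1515 FPKM in the ZNF207 libraries, against 1769.7, 1963 and 1767 FPKM in the control libraries (log2 change -0.22, SE 0.062, adjusted p = 0.196), and FOXA1 averaged 152 ± 3.75 FPKM in the ZNF207 libraries and 139 ± 9.09 FPKM in the control libraries (SD, n = 3 each, log2 change 0.12, SE 0.059, adjusted p = 0.448). Of 9 markers of leukocytes, endothelium, fibroblasts and basal epithelium, 8 stayed at or below 0.490 FPKM and COL1A1 stood at 9.36, 7.98 and 9.94 FPKM in the ZNF207 libraries, against 11.3, 8.82 and 10.5 FPKM in the control libraries.

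None of the 45 members that could be tested passed the test in either direction, and most estimates lay slightly below 0. Of all 13185 genes tested, 0.0531% passed as higher and 0.159% as lower, 0.212% together (limma on log2(FPKM + 1), Benjamini-Hochberg adjusted p under 0.05). At an unadjusted p under 0.05 by limma, 11 members (24.4%) were lower in the ZNF207 libraries, against 7.03% of all tested genes, and 1 member (2.22%), SAMHD1, was higher, against 5.08% of all tested genes. The estimates were below 0 for 37 members (82.2%) and for 52.4% of all tested genes. The median log2 change was -0.077 over the members and -0.0078 over all tested genes. For 44 of the 45 members the 95% interval of the change lay within 1.5-fold either way in FPKM + 1, which is 0.58 on the log2 scale. ADA was the exception. The same intervals span a wider fold range in FPKM itself, most of all for low genes such as TK2. FOLR1, the folate receptor alpha gene, did not reach an FPKM of 1 in 3 libraries and was not tested. Given how the members were chosen, these counts describe the list and test nothing about it.

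**Figure D1:**
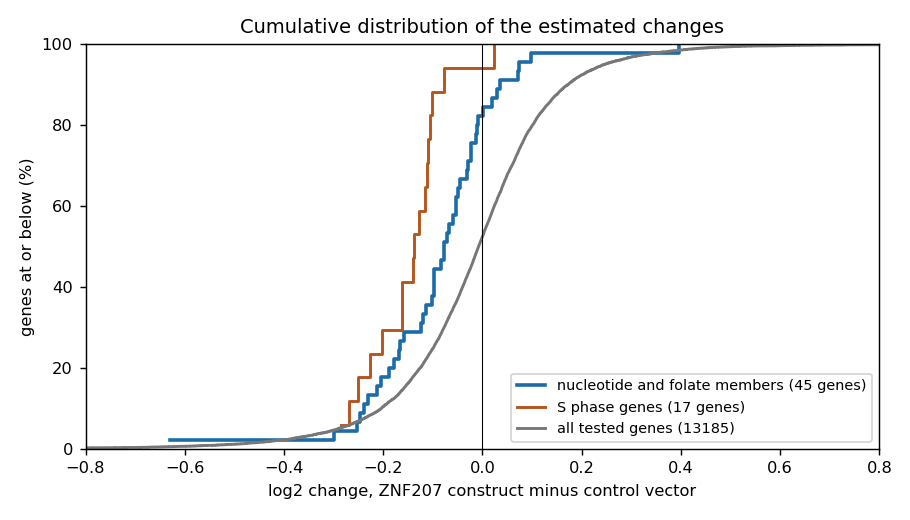
Cumulative share of genes (vertical axis, %) at or below each log2 change, ZNF207 construct minus control vector (horizontal axis), for the 45 tested members, 17 S phase genes and all 13185 tested genes. At a change of 0 the member curve stands at 82.2% and the curve of all tested genes at 52.4%.

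The branch medians lay at different distances from 0. The median log2 change was -0.12 for the 11 genes of dNTP supply, -0.097 for the 11 tested genes of the folate cycle, -0.050 for the 17 purine genes and -0.018 for the 6 pyrimidine genes. In 15 members (33.3%) every ZNF207 library lay below every control library, against 10.4% of all tested genes, and in 1 member (2.22%) every ZNF207 library lay above, against 7.61%. These 15 were 4 of 11 tested folate cycle genes (36.4%), 7 of 17 purine genes (41.2%) and 4 of 11 dNTP supply genes (36.4%). Of the 6 pyrimidine genes 0 were among them, and 6 genes are too few to set that branch apart from the 10.4%. No test compared the branches with each other.

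**Figure D2:**
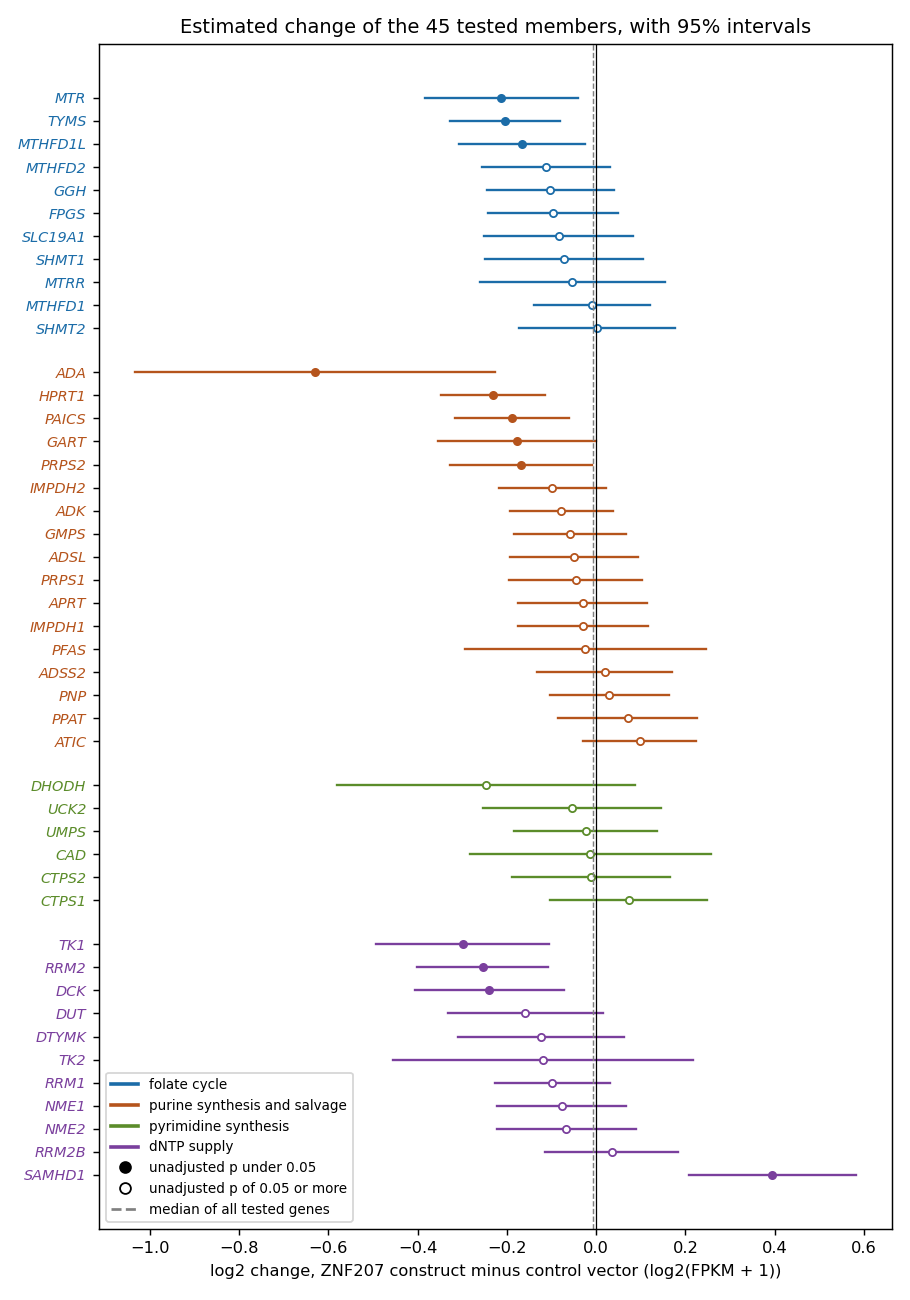
Estimated log2 change (point) with its 95% interval (line) for the 45 tested members by branch, ZNF207 construct minus control vector, from limma. Filled points mark the 12 members with an unadjusted p under 0.05, and of these only SAMHD1, at 0.40, lies to the right of 0.

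The 250 bases before the RefSeq start (GRCh38.p14) were searched for CCAAT (the NF-Y box) and for E2F-type words (TTCCCGC, with TTCGCGC as a variant, TTGCCGC as another and TTGGCGC as the last), on both strands. The matches are shown, as stretches of 18 bases, for RRM2 and TYMS, S phase genes whose values were lower, and for SAMHD1, whose values were higher, since the account of dNTP supply turns on them. Each is written 5′ to 3′ on the gene's strand with the matched letters in capitals. The RRM2 stretches are at chr2:10122614-10122631, chr2:10122644-10122661 and chr2:10122671-10122688 (plus strand), that of TYMS at chr18:657612-657629 (plus strand) and that of SAMHD1 at chr20:36951742-36951759 (minus strand).
RRM2 farthest: agCCAATgggaagggtcg
RRM2 middle: agCCAATgggaagggccg
RRM2 nearest: agCCAATgggaagggccg
TYMS: ccGCGGGAAaaggcgcgc
SAMHD1: ggCCAATaggctgCCAAT
For RRM2 and TYMS the RefSeq start lies downstream of the GENCODE gene start given below, so the stretches shown fall within the GENCODE genes. The RRM2 window holds 3 CCAAT words, beginning 123, 93 and 66 bases before the RefSeq start, and the SAMHD1 window holds 2, at 49 and 38 bases. The TYMS window holds 1 E2F-type word, 39 bases before the start, and the window of TK1, another S phase gene, holds neither. Of 10 dNTP supply windows 5 (50%) held CCAAT and 2 (20%), those of DCK and RRM1, an E2F-type word. The window of DUT held neither. Of 39 members with a RefSeq window, 18 (46.2%) held CCAAT and 6 (15.4%) an E2F-type word, against 32.0% and 10.8% of all 34943 windows. The RefSeq start given for PAICS, counted here, lies far upstream of its GENCODE start. Its window therefore misses the stretch between PAICS and its neighbour PPAT. The E-box CACGTG stood in 6 members' windows (15.4%), against 6.32% of all, and the interferon response element, searched as a pair of GAAA words with any 2 bases between them, in 0 members' windows, against 3.02%. CCAAT stood in the windows of both RRM2 and SAMHD1, and any link between these words and the changes was not tested. The words were matched by letters alone, and none was weighed as a binding site.

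Ribonucleotide reductase pairs a large subunit, RRM1, with a small subunit that is either RRM2, the S phase form, or RRM2B, the form that serves cells outside S phase and after DNA damage. RRM2 (chromosome 2, 10120698 to 10131419, plus strand, GENCODE v29, GRCh38) stood at 122, 128 and 111 FPKM in the ZNF207 libraries, against 136, 149.9 and 145 FPKM in the control libraries. Every ZNF207 library lay below every control library, yet the change did not pass the test (log2 change -0.25, SE 0.065, adjusted p = 0.155). RRM1 stood at 63.1, 60.2 and 61.1 FPKM in the ZNF207 libraries, against 62.1, 66.8 and 68.7 FPKM in the control libraries, with overlap between the groups (log2 change -0.098, SE 0.057, adjusted p = 0.539). RRM2B stood at 37.5, 37.0 and 42.2 FPKM in the ZNF207 libraries, against 37.6, 37.1 and 39.0 FPKM in the control libraries, and its highest value was in ZNF207 replicate 3 (log2 change 0.035, SE 0.066, adjusted p = 0.878). The ratio of RRM2 to RRM2B FPKM within a library was 3.26, 3.46 and 2.63 in the ZNF207 libraries and 3.61, 4.04 and 3.73 in the control libraries, so the groups did not overlap. RRM2 to RRM1, a ratio chosen after the values were seen, was 1.94, 2.12 and 1.82 in the ZNF207 libraries and 2.19, 2.24 and 2.11 in the control libraries, and these groups overlapped in 1 library of each.

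Thymidine nucleotides come from thymidylate synthase, TYMS, which takes its carbon from folate, or from salvage of thymidine by TK1 in the cytosol and TK2 in mitochondria. TYMS (chromosome 18, 657604 to 673578, plus strand) stood at 82.6, 80.6 and 79.4 FPKM in the ZNF207 libraries, against 88.9, 98.3 and 93.0 FPKM in the control libraries (log2 change -0.20, SE 0.055, adjusted p = 0.175). All ZNF207 values of TYMS lay below the control values. TK1 stood at 93.4, 98.9 and 84.5 FPKM in the ZNF207 libraries, against 100.4, 125 and 117 FPKM in the control libraries, again without overlap (log2 change -0.30, SE 0.087, adjusted p = 0.208). TK2 was the lowest of the tested members, at 1.48, 2.06 and 2.18 FPKM in the ZNF207 libraries, against 2.41, 2.10 and 1.94 FPKM in the control libraries (log2 change -0.12, SE 0.15, adjusted p = 0.80). The TK2 groups overlapped, and so did the within-library ratio of TK1 to TK2, at 63.0, 48.0 and 38.7 in the ZNF207 libraries and 41.7, 59.5 and 60.4 in the control libraries. DTYMK, the kinase that both routes need next, averaged 30.3 ± 2.54 FPKM in the ZNF207 libraries and 33.1 ± 2.81 FPKM in the control libraries (SD, n = 3 each, log2 change -0.12, SE 0.083, adjusted p = 0.602).

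DCK, which phosphorylates deoxycytidine and several nucleoside drugs, stood at 32.1, 32.0 and 28.5 FPKM in the ZNF207 libraries, against 33.6, 38.3 and 37.8 FPKM in the control libraries. Its groups did not overlap (log2 change -0.24, SE 0.075, adjusted p = 0.236). DUT, which clears dUTP and so keeps uracil out of DNA, stood at 55.1, 68.9 and 63.6 FPKM in the ZNF207 libraries, against 70.4, 68.9 and 69.5 FPKM in the control libraries. The groups of DUT were apart by less than the digits shown, with ZNF207 replicate 2 just under the lowest control (log2 change -0.16, SE 0.078, adjusted p = 0.457). Without ZNF207 replicate 1, its lowest library, the log2 change of DUT was -0.072 (limma, adjusted p = 0.727). The nucleoside diphosphate kinases NME2 and NME1 make triphosphates from diphosphates. NME2 was the most abundant member, at 651, 687 and 661 FPKM in the ZNF207 libraries, against 633, 759 and 707 FPKM in the control libraries (log2 change -0.067, SE 0.069, adjusted p = 0.748), and NME1 stood at 130.1, 125 and 112 FPKM in the ZNF207 libraries, against 124, 129.9 and 133 FPKM in the control libraries (log2 change -0.077, SE 0.064, adjusted p = 0.682). Neither gene's groups were apart. NME1, NME2 and the readthrough gene NME1-NME2 share a listed locus and similar sequence, so how the authors' counting divided their reads is uncertain. NME1-NME2 itself was listed at 1.31, 0.955 and 1.86 FPKM in the ZNF207 libraries and 1.46, 0.372 and 2.33 FPKM in the control libraries.

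SAMHD1, a hydrolase that breaks dNTPs down and limits retroviral reverse transcription, had an estimate of the opposite sign from RRM2, TYMS and TK1. It stood at 56.7, 50.8 and 54.1 FPKM in the ZNF207 libraries, against 44.8, 35.9 and 41.8 FPKM in the control libraries, and every ZNF207 library lay above every control library. This was the smallest p of all members but it missed the threshold (log2 change 0.40, SE 0.084, adjusted p = 0.0985), with a 95% interval of 0.21 to 0.58. The ratio of SAMHD1 to RRM2, chosen after the values were seen, was 0.463, 0.397 and 0.487 in the ZNF207 libraries and 0.330, 0.240 and 0.288 in the control libraries. Its groups could not overlap, since each ZNF207 library lay above all controls for SAMHD1 and below them for RRM2. The ratio therefore restates those separations and adds no further result. Its mean was 0.449 ± 0.0465 in the ZNF207 libraries and 0.286 ± 0.0452 in the control libraries (SD, n = 3 each). SAMHD1 shares its listed locus with TLDC2. CMPK2, an interferon-induced mitochondrial kinase of pyrimidine nucleotides that is no member, stood at 43.7, 43.1 and 52.1 FPKM in the ZNF207 libraries, against 26.3, 28.2 and 37.1 FPKM in the control libraries (log2 change 0.60, SE 0.12, adjusted p = 0.0941).

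**Figure D3:**
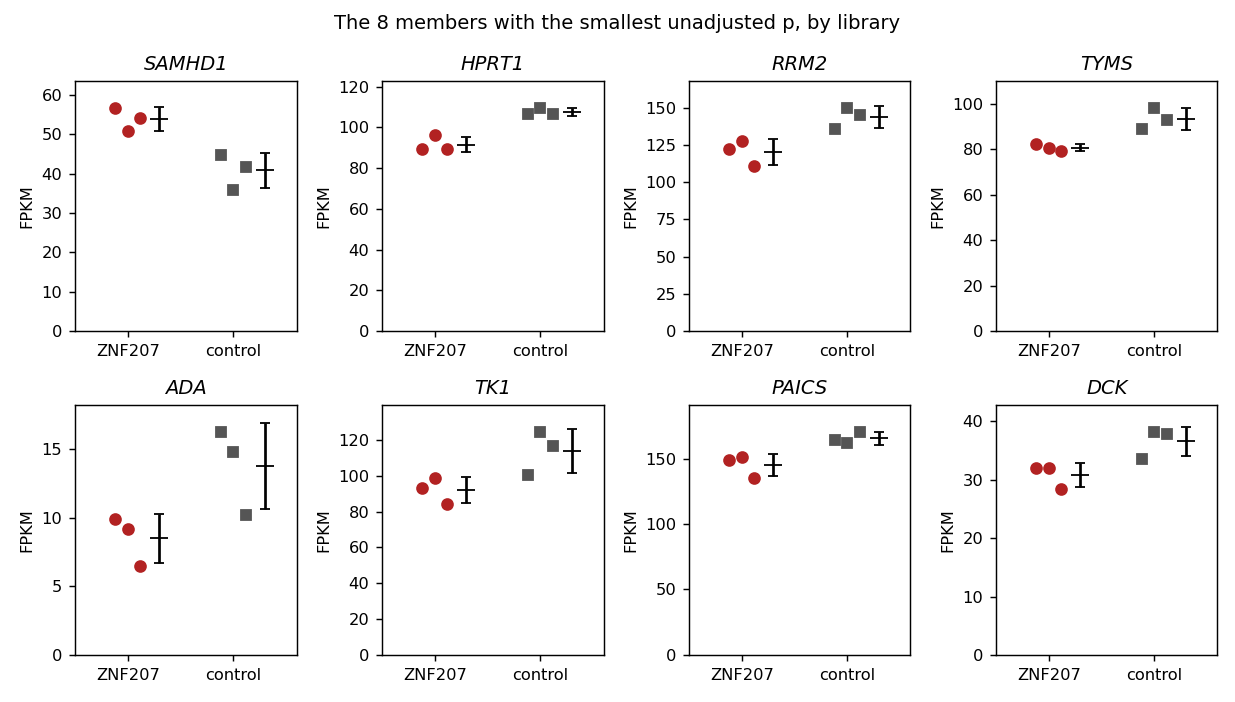
FPKM in each library (points) for the 8 members with the smallest unadjusted p, with the mean and SD of 3 libraries beside each group, ZNF207 construct on the left and control vector on the right. SAMHD1 is higher in the ZNF207 libraries (50.8 to 56.7 FPKM, against 35.9 to 44.8 FPKM in the control libraries), and the other 7 are lower there without overlap.

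RRM2, TYMS, TK1, DUT and RRM1 share their timing with the DNA replication genes, and most of those genes had lower values in the same libraries. Of 17 S phase genes 0 passed the test, 9 (52.9%) were lower at an unadjusted p under 0.05, against 7.03% of all tested genes, and 16 (94.1%) had estimates below 0, against 52.4% of all tested genes (median log2 change -0.14). GINS2, a part of the replicative helicase, stood at 17.9, 17.8 and 16.5 FPKM in the ZNF207 libraries, against 20.2, 21.5 and 22.3 FPKM in the control libraries (log2 change -0.28, SE 0.071, adjusted p = 0.145), and FEN1, a flap nuclease, at 38.2, 38.4 and 34.9 FPKM in the ZNF207 libraries, against 41.1, 44.2 and 43.3 FPKM in the control libraries (log2 change -0.20, SE 0.063, adjusted p = 0.236). The mean log2 level of these 17 genes was 5.04 to 5.16 in the ZNF207 libraries and 5.20 to 5.28 in the control libraries. The mean of the 11 dNTP supply genes ran from 5.82 to 5.89 in the ZNF207 libraries and from 5.89 to 5.96 in the control libraries. The part of the S phase genes' levels in the values of RRM2, TYMS and TK1 was not tested. In bulk RNA, fewer cells in S phase and less RNA of these genes per cell cannot be told apart. Of 7 transcription factors of these pathways 0 passed the test (median log2 change -0.091). E2F1 stood at 16.7, 17.4 and 16.7 FPKM in the ZNF207 libraries, against 17.3, 19.0 and 19.6 FPKM in the control libraries (log2 change -0.13, SE 0.072, adjusted p = 0.522), and E2F7, a repressor of the family, averaged 9.06 ± 0.655 FPKM in the ZNF207 libraries and 10.4 ± 0.998 FPKM in the control libraries (SD, n = 3 each, log2 change -0.18, SE 0.096, adjusted p = 0.492).

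**Figure D4:**
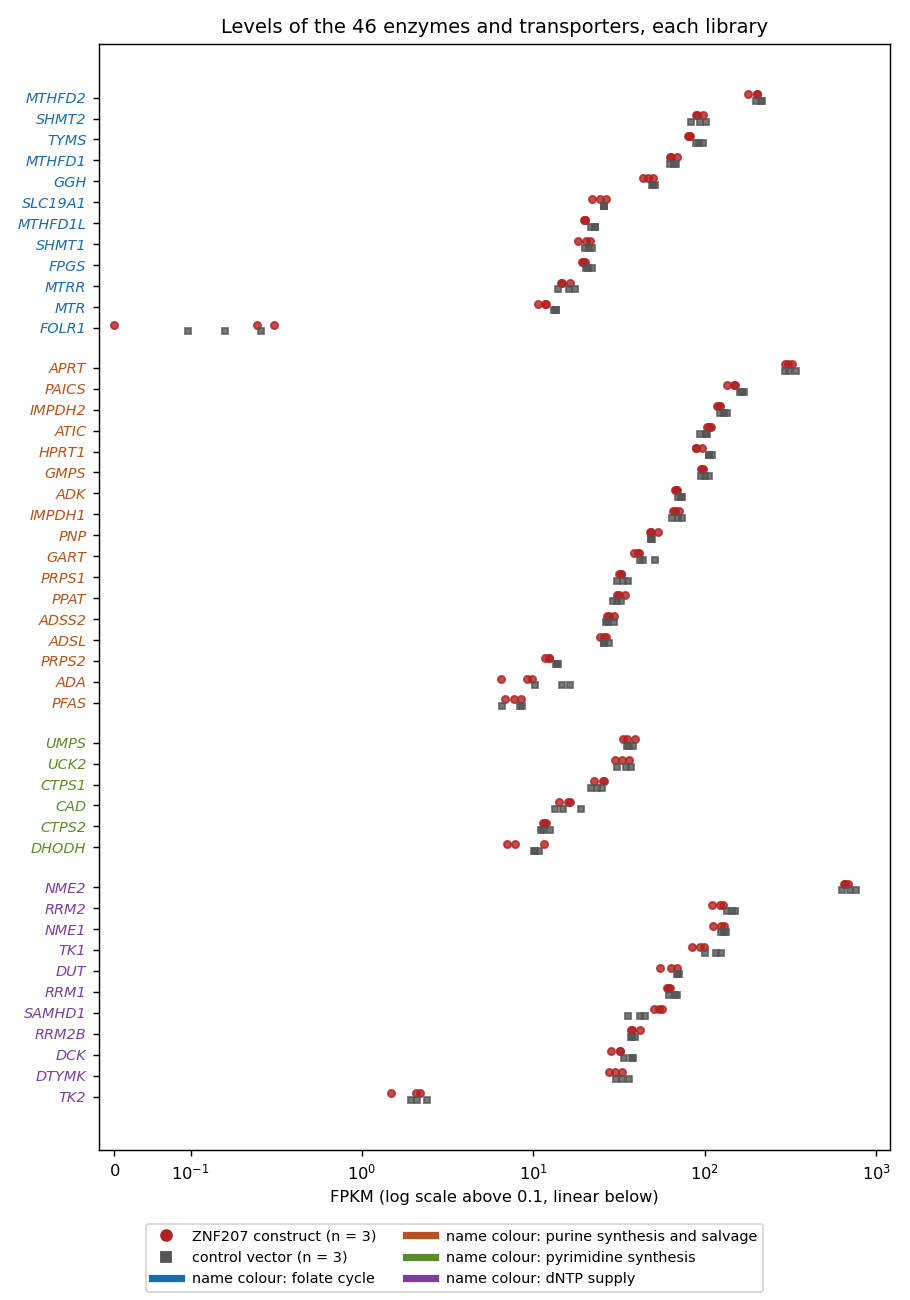
FPKM of the 46 members in each library (log axis above 0.1 FPKM, linear below), ordered by mean level within each branch, with ZNF207 libraries as circles above control libraries as squares. NME2 lies at the high end (633 to 759 FPKM), and FOLR1 is the one member below 1 FPKM in every library.

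In the folate cycle SHMT2 was more abundant than SHMT1 in every library, and the groups overlapped for both. SHMT2, which moves a carbon from serine to folate in mitochondria, stood at 89.5, 90.6 and 98.1 FPKM in the ZNF207 libraries, against 82.7, 93.9 and 102 FPKM in the control libraries (log2 change 0.0017, SE 0.078, adjusted p = 0.995). SHMT1, its cytosolic counterpart, stood at 21.5, 20.4 and 18.2 FPKM in the ZNF207 libraries, against 21.1, 20.1 and 22.0 FPKM in the control libraries (log2 change -0.072, SE 0.079, adjusted p = 0.763). The ratio of SHMT2 to SHMT1 within a library was 4.15, 4.45 and 5.39 in the ZNF207 libraries and 3.92, 4.67 and 4.64 in the control libraries, and its groups overlapped. MTHFD2, a mitochondrial dehydrogenase that is high in many tumours, stood at 178, 202 and 202 FPKM in the ZNF207 libraries, against 199, 215 and 214 FPKM in the control libraries (log2 change -0.11, SE 0.064, adjusted p = 0.522). It was the most abundant folate gene, and its groups overlapped too.

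MTHFD1L, the formate-releasing enzyme of mitochondria, had lower values in the ZNF207 libraries, while its cytosolic relative overlapped. MTHFD1L (chromosome 6, 150865549 to 151101887, plus strand) stood at 20.0, 19.7 and 20.0 FPKM in the ZNF207 libraries, against 21.6, 22.8 and 23.0 FPKM in the control libraries, without overlap (log2 change -0.17, SE 0.063, adjusted p = 0.328). MTHFD1, which uses that formate in the cytosol, stood at 69.0, 63.8 and 63.1 FPKM in the ZNF207 libraries, against 67.6, 63.1 and 66.3 FPKM in the control libraries (log2 change -0.0095, SE 0.058, adjusted p = 0.965). The ratio of MTHFD1L to MTHFD1 was 0.291, 0.309 and 0.318 in the ZNF207 libraries and 0.320, 0.362 and 0.346 in the control libraries, and the ZNF207 libraries lay just below the controls. MTR, methionine synthase, stood at 11.8, 11.9 and 10.7 FPKM in the ZNF207 libraries, against 13.6, 13.2 and 13.5 FPKM in the control libraries, again with no overlap (log2 change -0.21, SE 0.076, adjusted p = 0.305). Its reactivating partner MTRR averaged 15.2 ± 0.975 FPKM in the ZNF207 libraries and 15.8 ± 1.73 FPKM in the control libraries (SD, n = 3 each, log2 change -0.054, SE 0.092, adjusted p = 0.863), with overlapping groups.

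Folate enters cells by the carrier SLC19A1, is held there as polyglutamates made by FPGS, and is released from them by GGH. SLC19A1 averaged 24.3 ± 2.15 FPKM in the ZNF207 libraries and 25.8 ± 0.0769 FPKM in the control libraries (log2 change -0.084, SE 0.074, adjusted p = 0.699), with a wider spread among the ZNF207 libraries. FPGS averaged 19.6 ± 0.345 FPKM in the ZNF207 libraries and 21.0 ± 0.876 FPKM in the control libraries (log2 change -0.097, SE 0.065, adjusted p = 0.602), with every ZNF207 library below the controls. GGH averaged 46.7 ± 3.23 FPKM in the ZNF207 libraries and 50.1 ± 1.08 FPKM in the control libraries (log2 change -0.10, SE 0.063, adjusted p = 0.564), with overlap. FOLR1 was listed at 0, 0.245 and 0.308 FPKM in the ZNF207 libraries and 0.0965, 0.158 and 0.257 FPKM in the control libraries, below SLC19A1 in every library.

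In purine synthesis the first enzyme and a middle enzyme that sit head to head on the chromosome had estimates of opposite sign. PPAT, which commits phosphoribosyl pyrophosphate to the pathway (chromosome 4, 56393362 to 56435615, minus strand), and PAICS, a bifunctional enzyme of the middle steps (chromosome 4, 56435741 to 56464579, plus strand), run apart with 125 bases between the annotated genes. PPAT stood at 34.4, 31.7 and 30.8 FPKM in the ZNF207 libraries, against 30.6, 29.1 and 32.6 FPKM in the control libraries, with overlap (log2 change 0.071, SE 0.069, adjusted p = 0.732). PAICS stood at 149, 151 and 136 FPKM in the ZNF207 libraries, against 164, 162 and 171 FPKM in the control libraries, without overlap (log2 change -0.19, SE 0.057, adjusted p = 0.230). The ratio of PAICS to PPAT, chosen after the values were seen, was 4.33, 4.76 and 4.40 in the ZNF207 libraries and 5.36, 5.56 and 5.24 in the control libraries, so every ZNF207 library lay below every control library. The mean ratio was 4.50 ± 0.231 in the ZNF207 libraries and 5.39 ± 0.164 in the control libraries (SD, n = 3 each).

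For the other enzymes on the way to IMP the groups overlapped, except for GART. GART, a trifunctional enzyme that uses formyl folate, averaged 40.3 ± 1.35 FPKM in the ZNF207 libraries and 45.8 ± 5.05 FPKM in the control libraries (log2 change -0.18, SE 0.079, adjusted p = 0.412), with a single high control at 51.6 FPKM, replicate 1. Without that library the log2 change of GART was -0.091 (limma, adjusted p = 0.626), and its unadjusted p was no longer under 0.05. That p was borderline in the main fit (limma, unadjusted p = 0.0498). It was also not under 0.05 with another pseudocount, no filter, any other scaling or no variance trend, or without any 1 of the ZNF207 libraries. ATIC, the bifunctional enzyme that closes the ring, averaged 106 ± 3.28 FPKM in the ZNF207 libraries and 99.2 ± 5.09 FPKM in the control libraries (log2 change 0.098, SE 0.056, adjusted p = 0.529), the highest estimate among the purine genes. PFAS, which brings in nitrogen from glutamine midway, averaged 7.67 ± 0.852 FPKM in the ZNF207 libraries and 7.84 ± 1.10 FPKM in the control libraries (log2 change -0.024, SE 0.12, adjusted p = 0.958) and was the least abundant purine gene. ADSL, which acts both before IMP and on the way to AMP, averaged 25.6 ± 1.05 FPKM in the ZNF207 libraries and 26.5 ± 0.931 FPKM in the control libraries (log2 change -0.050, SE 0.064, adjusted p = 0.805).

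From IMP the pathway forks. IMPDH2, the main isoform of the rate-limiting step towards GMP in dividing cells, stood at 122, 121 and 118 FPKM in the ZNF207 libraries, against 122, 129.8 and 135 FPKM in the control libraries, with the ZNF207 values just under the controls (log2 change -0.098, SE 0.054, adjusted p = 0.506). IMPDH1, the other isoform, stood at 67.3, 65.0 and 71.2 FPKM in the ZNF207 libraries, against 64.4, 70.1 and 73.4 FPKM in the control libraries, with overlap (log2 change -0.029, SE 0.064, adjusted p = 0.896). The ratio of IMPDH2 to IMPDH1 was 1.81, 1.86 and 1.66 in the ZNF207 libraries and 1.90, 1.85 and 1.84 in the control libraries, and its groups overlapped. GMPS, which completes GMP, averaged 96.2 ± 1.33 FPKM in the ZNF207 libraries and 100.3 ± 5.86 FPKM in the control libraries (log2 change -0.059, SE 0.056, adjusted p = 0.725). ADSS2, which takes the adenine side, averaged 28.1 ± 1.30 FPKM in the ZNF207 libraries and 27.7 ± 1.52 FPKM in the control libraries (log2 change 0.019, SE 0.067, adjusted p = 0.942).

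Among salvage genes HPRT1 and ADA had lower values in the ZNF207 libraries. HPRT1, which returns hypoxanthine and guanine to nucleotides, stood at 89.4, 96.0 and 89.4 FPKM in the ZNF207 libraries, against 107, 109.6 and 107 FPKM in the control libraries. Its groups were well apart, and it had the smallest p of the members with lower values (log2 change -0.23, SE 0.052, adjusted p = 0.114). ADA (chromosome 20, 44619522 to 44652233, minus strand), which deaminates adenosine and deoxyadenosine, stood at 9.88, 9.13 and 6.48 FPKM in the ZNF207 libraries, against 16.3, 14.8 and 10.2 FPKM in the control libraries. The change of ADA was the largest in size of all members, but its libraries varied widely and the groups were apart only narrowly (log2 change -0.63, SE 0.18, adjusted p = 0.204, 95% interval -1.03 to -0.23). APRT, the adenine counterpart of HPRT1, averaged 307 ± 14.5 FPKM in the ZNF207 libraries and 314 ± 23.1 FPKM in the control libraries (log2 change -0.030, SE 0.065, adjusted p = 0.893). ADK, adenosine kinase, averaged 68.1 ± 0.906 FPKM in the ZNF207 libraries and 72.0 ± 2.25 FPKM in the control libraries (log2 change -0.078, SE 0.051, adjusted p = 0.593), with all ZNF207 values below the controls. PNP, which splits purine nucleosides, averaged 49.9 ± 2.98 FPKM in the ZNF207 libraries and 48.8 ± 0.303 FPKM in the control libraries (log2 change 0.030, SE 0.059, adjusted p = 0.883).

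Phosphoribosyl pyrophosphate, on which purine and pyrimidine nucleotides are built, is made by PRPS1 and PRPS2. PRPS1 stood at 31.6, 32.5 and 32.5 FPKM in the ZNF207 libraries, against 30.9, 35.6 and 33.5 FPKM in the control libraries, with overlap (log2 change -0.046, SE 0.067, adjusted p = 0.834). PRPS2 stood at 11.8, 12.3 and 12.3 FPKM in the ZNF207 libraries, against 13.9, 13.6 and 13.8 FPKM in the control libraries, without overlap (log2 change -0.17, SE 0.071, adjusted p = 0.384). The ratio of PRPS1 to PRPS2 was 2.68, 2.63 and 2.63 in the ZNF207 libraries and 2.21, 2.63 and 2.42 in the control libraries, and the lowest ZNF207 library exceeded the highest control by little.

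The pyrimidine branch had the median closest to 0. CAD, which carries the first 3 steps in a single protein, stood at 16.3, 15.9 and 14.1 FPKM in the ZNF207 libraries, against 19.0, 13.3 and 14.8 FPKM in the control libraries, and the highest and the lowest values were both controls (log2 change -0.013, SE 0.12, adjusted p = 0.978). DHODH, the mitochondrial step that inhibitors such as leflunomide block, stood at 11.5, 7.01 and 7.81 FPKM in the ZNF207 libraries, against 10.7, 10.1 and 10.3 FPKM in the control libraries (log2 change -0.25, SE 0.15, adjusted p = 0.552). Replicate 1 of the ZNF207 libraries was the highest of all 6 for DHODH and the other two were the lowest, so the groups overlapped. The log2 change of DHODH was -0.44 without ZNF207 replicate 1 (limma, adjusted p = 0.189) and -0.12 without ZNF207 replicate 2 (limma, adjusted p = 0.821). UMPS, which makes UMP, averaged 35.9 ± 2.94 FPKM in the ZNF207 libraries and 36.5 ± 1.48 FPKM in the control libraries (log2 change -0.023, SE 0.071, adjusted p = 0.933).

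CTP is made from UTP by CTPS1, the isoform lymphocytes need to proliferate, and CTPS2. CTPS1 stood at 25.8, 22.7 and 25.5 FPKM in the ZNF207 libraries, against 23.4, 21.7 and 25.1 FPKM in the control libraries (log2 change 0.073, SE 0.078, adjusted p = 0.759), and CTPS2 at 11.4, 11.8 and 11.6 FPKM in the ZNF207 libraries, against 11.5, 12.6 and 11.1 FPKM in the control libraries (log2 change -0.012, SE 0.079, adjusted p = 0.967). The groups overlapped for both, and for their ratio, at 2.26, 1.93 and 2.20 in the ZNF207 libraries and 2.04, 1.73 and 2.26 in the control libraries. UCK2, which salvages uridine and cytidine, stood at 36.1, 29.8 and 32.9 FPKM in the ZNF207 libraries, against 30.8, 34.6 and 37.1 FPKM in the control libraries, with overlap (log2 change -0.054, SE 0.089, adjusted p = 0.857).

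**Figure D5:**
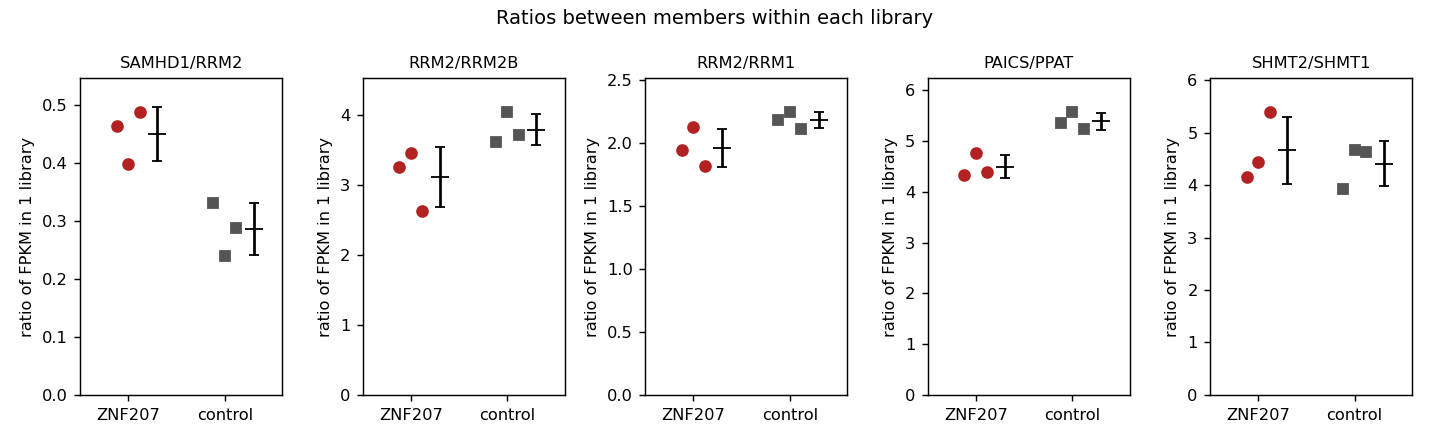
Ratios of FPKM between members within each library (points), with the mean and SD of 3 libraries, ZNF207 construct on the left and control vector on the right. The SAMHD1 to RRM2 ratio is higher in the ZNF207 libraries (0.397 to 0.487 against 0.240 to 0.330 in the control libraries), which follows from the separation of both genes. RRM2 to RRM2B and PAICS to PPAT are lower without overlap, and RRM2 to RRM1 and SHMT2 to SHMT1 overlap.

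Further genes of the same pathways, taken as lists, also gave 0 that passed the test in either direction (limma, in each of 4 lists). Of 10 tested folate and methionine cycle genes 0 had an unadjusted p under 0.05, with a median log2 change of 0.065. DLD, a subunit shared by the glycine cleavage system, averaged 187 ± 11.3 FPKM in the ZNF207 libraries and 174 ± 8.84 FPKM in the control libraries (log2 change 0.10, SE 0.062, adjusted p = 0.564), and the proton-coupled folate carrier SLC46A1 averaged 4.03 ± 0.293 FPKM in the ZNF207 libraries and 4.81 ± 0.730 FPKM in the control libraries (log2 change -0.20, SE 0.12, adjusted p = 0.564). Of 15 tested purine genes 1 (6.67%) was higher and 2 (13.3%) were lower at an unadjusted p under 0.05 (median -0.036), against 5.08% higher and 7.03% lower among all tested genes. AK4, a mitochondrial adenylate kinase, stood at 57.3, 60.4 and 53.9 FPKM in the ZNF207 libraries, against 64.7, 75.8 and 75.6 FPKM in the control libraries, without overlap (log2 change -0.33, SE 0.075, adjusted p = 0.123), and GMPR, which turns GMP back to IMP, averaged 4.05 ± 0.292 FPKM in the ZNF207 libraries and 2.89 ± 0.248 FPKM in the control libraries (log2 change 0.38, SE 0.12, adjusted p = 0.233). AMPD2, an AMP deaminase, was the other lower gene (log2 change -0.23, SE 0.075, adjusted p = 0.248).

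Of 8 tested further pyrimidine genes 1, CMPK2, was higher and 1, UCKL1, a uridine-cytidine kinase relative, was lower at an unadjusted p under 0.05 (median 0.022), 12.5% each way beside the same shares of 5.08% and 7.03% among all tested genes. UCKL1 averaged 14.9 ± 0.937 FPKM in the ZNF207 libraries and 17.2 ± 1.03 FPKM in the control libraries (log2 change -0.20, SE 0.079, adjusted p = 0.348). Of 12 further dNTP genes 2 (16.7%) were higher and 1 (8.33%) was lower by the same measure (median -0.062). NT5C, a nucleotidase that removes phosphate from deoxynucleotides, stood at 21.6, 24.1 and 20.3 FPKM in the ZNF207 libraries, against 27.2, 28.8 and 29.8 FPKM in the control libraries, without overlap (log2 change -0.37, SE 0.077, adjusted p = 0.0967). NME6, a distant relative of NME1, averaged 11.7 ± 0.996 FPKM in the ZNF207 libraries and 8.91 ± 1.30 FPKM in the control libraries (log2 change 0.36, SE 0.11, adjusted p = 0.236), and NME7 had a log2 change of 0.27 (SE 0.11, adjusted p = 0.352).

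Overlapping genes and pseudogenes limit some of these values. The listed locus of 32 of the 46 members is shared with another gene of the table, TYMS with the antisense-oriented ENOSF1 among them. For 14 members the table holds pseudogenes named after them, whose summed level reached at most 0.865 FPKM in any library. How reads were divided between them is not known here.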

How the data were processed

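RNA of 6 MDA-MB-453 libraries was measured by sequencing. The authors deposited 1 table of FPKM values, with 1 column per library and 60658 rows for 60569 gene names. The tools named are Bowtie2, RSEM 1.3.1 and DESeq2 1.4.5, with build hg38, per the submitters' processing notes. Their roles, the annotation and the strandedness are not stated there. The columns are named NC and 207 with a digit, and were matched to the sample titles by those names alone.

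Read depth is unknown: in any pair of libraries the commonest ratio was shared by no more than 0.353% of 1981 low genes, so whole reads could not be recovered, and no count test was run. The precision therefore rests on 3 libraries a group. Identical values in both libraries of a pair within a group occurred in 8 tested genes at most.

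Values were analysed as log2(FPKM + 1), a scale that understates changes of low genes. Genes needed an FPKM of at least 1 in 3 libraries or more. All 13185 that had it entered a single fit with limma 3.58.1 in R 4.3.3 (mean-variance trend, two-sided, Benjamini-Hochberg adjustment, threshold 0.05). All adjusted p-values, SEs and 95% intervals of genes come from this fit unless an alternative is named. The procedure was tested on simulated data whose changes were mostly larger than those of the members, so it does not show that changes of the members' size would be found. The rule for genes given library by library takes, in each branch, the 3 members with the smallest p, fixed branch-point enzymes and fixed isoform pairs, and, outside the members, the 2 genes of each list with the smallest p; library values of DCK, DUT and COL1A1, the genes AMPD2 and NME7, and the within-library ratios marked so were added after their values were seen. Some genes of the lists are not reported here. The members and lists were chosen with earlier results of these data known. Gene coordinates are from GENCODE 29 where the gene lies in the listed locus, and upstream sequences from RefSeq. Alternatives were another pseudocount, filter, scaling or variance model, a block on the replicate number, and leaving out each library in turn.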

Additional observations from a re-analysis of the deposited data

How the results depend on the processing

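No member passed the test under any of the 14 alternatives but the replicate block, where 2 did: SAMHD1 (adjusted p = 0.025) and ADA (adjusted p = 0.0176), with 145 genes called over the whole table. Same-numbered libraries correlated at 0.14, 0.0088 and 0.17 in their deviations from the group means. ZNF207 replicates 1 and 3 correlated best with the control of their own number, and ZNF207 replicate 2 with control replicate 3 (0.048). These values do not settle whether the numbers mark pairs. The numbers were not taken as pairs because the labels do not state any. Outside the block the lowest adjusted p of a member was 0.062, for SAMHD1 with the filter at an FPKM of 5. The number of genes called over the whole table, 28 (7 higher and 21 lower), was 64 with that filter, 17 with median-of-ratios scaling (6 higher and 11 lower), 20 with quantile scaling (8 higher and 12 lower), 4 without a filter and 5 without a variance trend, and 7 to 33 when 1 library was left out: 12, 17 and 7 without ZNF207 replicate 1, 2 and 3, and 33, 10 and 15 without control replicate 1, 2 and 3. The cause was not tested.

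With TPM scaling the medians were -0.059 for all members, -0.080 for the folate cycle and -0.032 for purines, and 34 members and 46.9% of all genes lay below 0. Members lower at an unadjusted p under 0.05 (limma) numbered 11 in the main fit, 9 with TPM scaling and 12 with the replicate block. They numbered 8 to 11 with 1 library left out, and 10 or 11 under the remaining alternatives. The matching shares of all tested genes under these alternatives are not given here. The purine median was -0.040 with median-of-ratios and -0.043 with quantile scaling. With 1 library left out it ran from -0.091 to -0.058, that of all members from -0.099 to -0.064, and that of pyrimidines from -0.038 to 0.0086. Of the members with changes over 0.1 in size that kept their sign, a left-out library also moved DTYMK (-0.066 without ZNF207 replicate 3, -0.063 without control replicate 2), GGH (-0.052 without ZNF207 replicate 1), MTHFD2 (-0.053 without ZNF207 replicate 1) and TK2 (-0.0087 and -0.19 without ZNF207 replicates 1 and 3, -0.060 without control replicate 1) by over 1.5 times, besides GART, DHODH and DUT.

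The sign of the log2 change turned under some alternative in 15 members. With TPM scaling CAD was at 0.0052, CTPS2 at 0.0060 and MTHFD1 at 0.0091. MTHFD1 was at 0.00061 with median-of-ratios and NME2 at 0.0033 with quantile scaling. With 1 library left out the log2 change ran from -0.017 to 0.060 for ADSS2, -0.079 to 0.025 for APRT, -0.12 to 0.12 for CAD, -0.046 to 0.037 for CTPS2, -0.081 to 0.012 for IMPDH1, -0.049 to 0.014 for MTHFD1, -0.13 to 0.014 for MTRR, -0.13 to 0.050 for PFAS, -0.017 to 0.061 for PNP, -0.098 to 0.0020 for PRPS1, -0.024 to 0.069 for RRM2B, -0.079 to 0.072 for SHMT2, -0.12 to 0.015 for UCK2 and -0.084 to 0.028 for UMPS.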

Other observations

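Genes that supply ribose, serine carbon and glutamine to nucleotide synthesis were looked at as a list of 13, of which 0 passed the test by limma. PGLS, a lactonase of the pentose phosphate pathway, stood at 46.1, 49.9 and 47.9 FPKM in the ZNF207 libraries, against 50.5, 61.4 and 54.6 FPKM in the control libraries, without overlap (log2 change -0.20, SE 0.075, adjusted p = 0.321). PGD, a dehydrogenase of the same pathway, averaged 76.8 ± 0.978 FPKM in the ZNF207 libraries and 69.7 ± 4.10 FPKM in the control libraries (SD, n = 3 each, log2 change 0.14, SE 0.057, adjusted p = 0.370), and its groups did not overlap either. PHGDH, which opens serine synthesis, averaged 91.2 ± 5.90 FPKM in the ZNF207 libraries and 105 ± 9.47 FPKM in the control libraries (SD, n = 3 each, log2 change -0.20, SE 0.076, adjusted p = 0.332), with overlapping groups. By limma 3 of the 13 (23.1%) were higher at an unadjusted p under 0.05, PGD among them, and 2 (15.4%) were lower, PGLS and PHGDH, against 5.08% higher and 7.03% lower among all tested genes. PGD and PHGDH were named after their values were seen.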
